A study of Mus musculus with 3 samples.

Results

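Gata3 and the Th2 cytokine locus were examined in mouse T cells grown under Th17 conditions, in the reads that fall into 2 stretches of the mm9 genome. The members are 5 genes of 49997 in the gene table used for names: Gata3 on chromosome 2 (gene ID 14462), and Il4 (16189), Il13 (16163), Rad50 (19360) and Il5 (16191) on chromosome 11. They were chosen by position: reads on chromosome 2 from 9.75 to 9.84 Mb make up the Gata3 window, and reads on chromosome 11 from 53.415 to 53.55 Mb the Th2 cytokine window. On chromosome 11, Il4 was taken to lie near 53.426 Mb, Il13 near 53.445 Mb and Il5 near 53.534 Mb, with Rad50 between Il13 and Il5. No annotation of the build of the reads was used, so regions and sites are given by position and a transcription start was not assigned to any of them. The gene table, of GRCm38.p6, lists the genes on chromosome 11 in the order Kif3a, Il4, Il13, Rps2-ps4 (a pseudogene), Rad50, Il5, Mir7671 (a microRNA gene) and Irf1. On chromosome 2 its order is Gm13218, Gata3, 4930412O13Rik and 9230102O04Rik, all but Gata3 being non-coding RNA genes.

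GATA3 is the transcription factor that directs naive CD4 T cells to the Th2 fate, and it is also needed in the thymus for CD4 T cells to form. Il4, Il13 and Il5 encode the cytokines of Th2 cells: IL-4 drives the Th2 fate itself and antibody class switching, IL-13 acts on epithelium and mucus production, and IL-5 on eosinophils. Rad50, a gene expressed in most cell types, encodes a subunit of the MRN complex of DNA repair, and its 3′ part holds the locus control region of the Th2 cytokines. H3K4me3 is a histone mark of active promoters, and STAT3 is the transcription factor that IL-6 activates and that the Th17 fate requires.

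The series sequenced chromatin immunoprecipitates (ChIP-seq) of 3 libraries, 1 for each group. The STAT3-deficient H3K4me3 library came from cells of Stat3fl/fl mice with CD4-Cre, which deletes the gene in T cells, and the wild-type H3K4me3 and phospho-STAT3 libraries from Stat3fl/fl cells without Cre, while FoxP3-GFP is named for all 3. The antibody for phospho-STAT3(Ser727) recognises STAT3 with a phosphate on that serine. The sources used here give no ages or numbers of mice, and the wild-type libraries share their genotype. In all groups, sorted naive CD4 T cells were activated for 72 h through CD3 and CD28 in the presence of TGF-b at 2.5 ng/ml and of IL-6 at 10 ng/ml. Antibodies blocked IL-2, IL-4 and IFN-g, so the cytokine that drives Th2 cells was neutralised in every group, and IL-6 was given again for 1 h at the end. The libraries held 12075963 STAT3-deficient H3K4me3, 12281399 wild-type H3K4me3 and 10127075 phospho-STAT3 reads. Both windows together held 2072 STAT3-deficient H3K4me3, 1763 wild-type H3K4me3 and 1625 phospho-STAT3 reads. Cell type markers could not be placed on this build, so the Th17 label was not checked. With 1 library a group no difference has a replicate check, and all 95% intervals (exact Clopper-Pearson) cover counting error only.

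The promoters of the members are shown for their letters only, and no H3K4me3 region or phospho-STAT3 site was placed on them. They are the 250 bases before the start in RefSeq's promoter table of GRCm38.p6, whose coordinates differ from those of the reads. The table holds 5 such promoters for 4 of the 5 members, all but Rad50, and of the 2 starts listed for Il4 only 1 is shown, since the other promoter held no match to the first 3 motifs below. Capitals mark the matches to the first 3 motifs below, which are STAT-type motifs and 1 form of the GATA motif. Other forms of the GATA motif were not searched, so lower-case letters may hold them. The intervals are chr2:9878601-9878850 on the minus strand for Gata3, chr11:53618666-53618915 on the minus strand for Il4, chr11:53634703-53634952 on the minus strand for Il13 and chr11:53720544-53720793 on the plus strand for Il5.
Gata3: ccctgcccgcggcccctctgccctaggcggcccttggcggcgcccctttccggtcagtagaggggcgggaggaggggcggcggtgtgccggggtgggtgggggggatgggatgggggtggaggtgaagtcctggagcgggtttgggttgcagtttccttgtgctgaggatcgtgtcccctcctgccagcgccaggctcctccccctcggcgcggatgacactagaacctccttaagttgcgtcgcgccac
Il4: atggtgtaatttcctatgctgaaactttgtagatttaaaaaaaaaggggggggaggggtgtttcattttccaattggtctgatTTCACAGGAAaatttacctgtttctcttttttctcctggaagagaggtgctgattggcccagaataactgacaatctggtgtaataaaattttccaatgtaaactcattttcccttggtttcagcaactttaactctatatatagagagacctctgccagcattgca
Il13: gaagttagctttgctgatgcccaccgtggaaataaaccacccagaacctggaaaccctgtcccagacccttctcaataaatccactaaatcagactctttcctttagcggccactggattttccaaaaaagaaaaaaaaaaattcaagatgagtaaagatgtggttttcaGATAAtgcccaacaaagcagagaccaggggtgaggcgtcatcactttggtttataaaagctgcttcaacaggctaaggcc
Il5: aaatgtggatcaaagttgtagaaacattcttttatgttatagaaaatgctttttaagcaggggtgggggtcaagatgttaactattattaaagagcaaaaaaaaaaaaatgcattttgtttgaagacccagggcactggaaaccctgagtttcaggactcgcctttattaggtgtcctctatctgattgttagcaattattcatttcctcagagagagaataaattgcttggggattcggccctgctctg
On both strands, the STAT motif TTCNNNGAA matched in 0 of the 5 promoters, as against 7.02% of the 32851 promoters in the table. The form with 1 more base in the spacer, which STAT6 is known to bind, matched once, in the Il4 promoter (TTCACAGGAA, from 167 to 158 bases before the start), and in 5.85% of all promoters. GATAA matched once, in the Il13 promoter (from 80 to 76 bases before the start), and in 22.6% of all promoters. GGAAA, the core that NFAT factors bind, matched 5 times in the Il4 promoter shown, 4 times in that of Il13, and 2 times each in those of Gata3 and Il5. One of the Il4 matches overlaps TTCACAGGAA, and 55.6% of all promoters hold at least 1 match. A match is a description of the letters only.

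In the Gata3 window H3K4me3 was higher in STAT3-deficient than in wild-type cells, and the excess lay in one part of the window, spanned by 2 neighbouring wide regions. H3K4me3 regions were called over the whole genome on both H3K4me3 libraries pooled, and regions with at least 50 reads in both together are called marked. Ratios are STAT3-deficient over wild-type, scaled so that the median marked region has a log2 ratio of 0, which removes any change common to all of them. The Gata3 window held 4 regions, 3 of them marked, and the Th2 cytokine window 2, of which 1 was marked. A region was taken to differ when its ratio was at least 2-fold and its interval left out 0. That rule was passed by 2 of the 4 marked regions of both windows, both near Gata3 and both higher in STAT3-deficient cells. Of all 10971 marked regions, 2.17% passed it in either direction, 1.01% higher and 1.16% lower. The 2 regions are neighbouring pieces of 1 stretch, so they do not count as separate events. The wild-type library alone called that stretch only from 9800000 to 9801199. Most of it thus entered the pooled calls mainly through the STAT3-deficient reads that the ratio then scores. The median log2 ratio of the 4 marked regions was 0.62, beside 0 for all marked regions by construction.

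The first of these regions, on chromosome 2 from 9792800 to 9795599, held 129 STAT3-deficient and 43 wild-type reads. That is 46.1 against 15.4 reads per kb, and a log2 ratio of 1.29 (95% interval 0.78 to 1.82). Its ratio was the 63rd highest of all marked regions. The second, from 9796800 to 9801599, held 271 STAT3-deficient and 108 wild-type reads, or 56.5 against 22.5 reads per kb. Its log2 ratio was 1.03 (0.70 to 1.37), just above the 2-fold limit and the 103rd highest. It was also one of the widest, at 4800 bp wider than 98.8% of marked regions.

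The third marked region near Gata3, from 9810600 to 9811599, had a ratio closer to 1. It held 87 STAT3-deficient and 61 wild-type reads, a log2 ratio of 0.22 (-0.27 to 0.71), an interval that held 0. By library totals it was 0.54 (0.05 to 1.03), an interval above 0. By reads per kb it was the densest of the 4 Gata3 regions, with 87 in STAT3-deficient and 61 in wild-type cells. The region from 9804600 to 9805399, with 27 STAT3-deficient and 17 wild-type reads, was too sparse to be marked, and its log2 ratio of 0.37 had an interval from -0.56 to 1.34. The 80601 bp of the Gata3 window outside all regions held 566 STAT3-deficient and 533 wild-type reads, 7.02 against 6.61 per kb. The scaling set the sign here, with a log2 ratio of -0.21 (-0.38 to -0.04) when scaled by marked regions, while library totals gave 0.11 (-0.06 to 0.28).

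**Figure D1:**
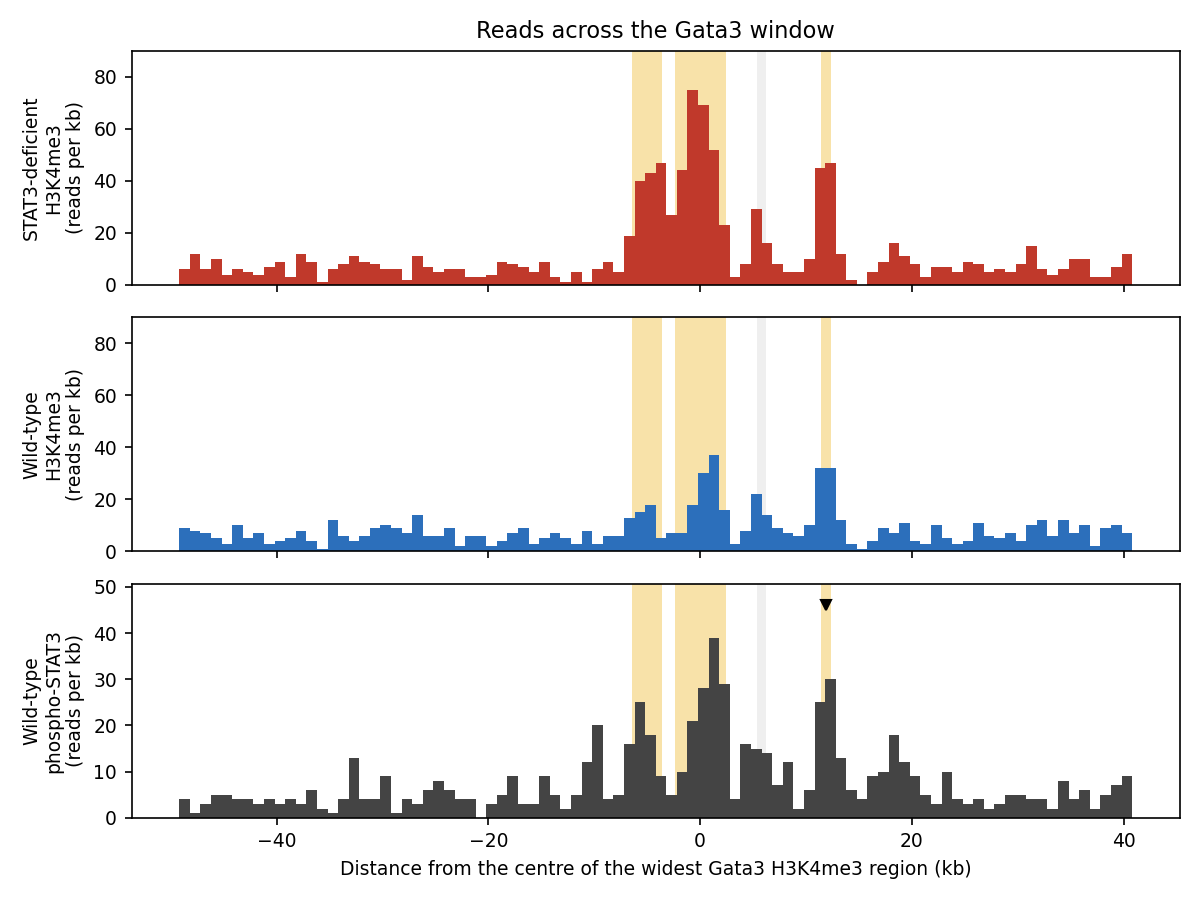
Reads per 1 kb bin across the Gata3 window in the STAT3-deficient H3K4me3 (top), wild-type H3K4me3 (middle) and wild-type phospho-STAT3 library (bottom), against distance in kb from the centre of the widest region. Yellow bands are marked regions, the grey band is a region under 50 reads and the triangle is the phospho-STAT3 site. The highest bin held 75 STAT3-deficient H3K4me3 reads and the highest wild-type H3K4me3 bin 37.

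Of the 10 bins of 1 kb that cover both wide regions, 10 held more STAT3-deficient than wild-type reads before scaling. Both regions had already passed the rule as higher, and all bins come from the same libraries. The count is thus a description only. Scaled by marked regions, the log2 ratio was 0.25 (-0.84 to 1.39) in the first bin and 0.23 (-0.76 to 1.25) in the last. In the bin from 9800000 it was 0.19 (-0.44 to 0.84). These intervals held 0, while those of the other bins lay above 0. The excess was greatest in the inner part of the Gata3 stretch, where wild-type cells had little H3K4me3. From 9795000 on, consecutive 1 kb bins held 47, 27, 44 and 75 STAT3-deficient reads against 5, 7, 7 and 18 wild-type reads. Together these 4000 bp held 193 STAT3-deficient and 37 wild-type reads, a log2 ratio of 2.09 (1.57 to 2.64). The bounds of this stretch were chosen after its values were seen, so the size is a description only. Towards higher coordinates, the 2600 bp from 9799000 to 9801599 held 141 STAT3-deficient and 81 wild-type reads, a log2 ratio of 0.50 (0.10 to 0.92). The highest STAT3-deficient bin began at 9798000 and the highest wild-type bin, with 37 reads, at 9800000.

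Calling regions on each library alone gave regions of different extent. On the STAT3-deficient library, the stretch was called as regions of 3200 bp (9792800 to 9795999) and 3400 bp (9796800 to 9800199). The median of the 11072 regions called on that library was 1000 bp. On the wild-type library, the stretch gave a single region of 1200 bp, from 9800000 to 9801199, with 64 STAT3-deficient and 46 wild-type reads, where the median of 10015 regions was 800 bp. The densest region, from 9810600 to 9811599, was called with the same bounds on either library. In the gap of 1200 bp between the pooled regions, STAT3-deficient cells still had 29 reads and wild-type cells 6, a log2 ratio of 1.98 (0.68 to 3.54). Over the whole 8800 bp from the first base of one region to the last of the other, there were 429 STAT3-deficient and 157 wild-type reads, a log2 ratio of 1.15 (0.89 to 1.43).

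**Figure D2:**
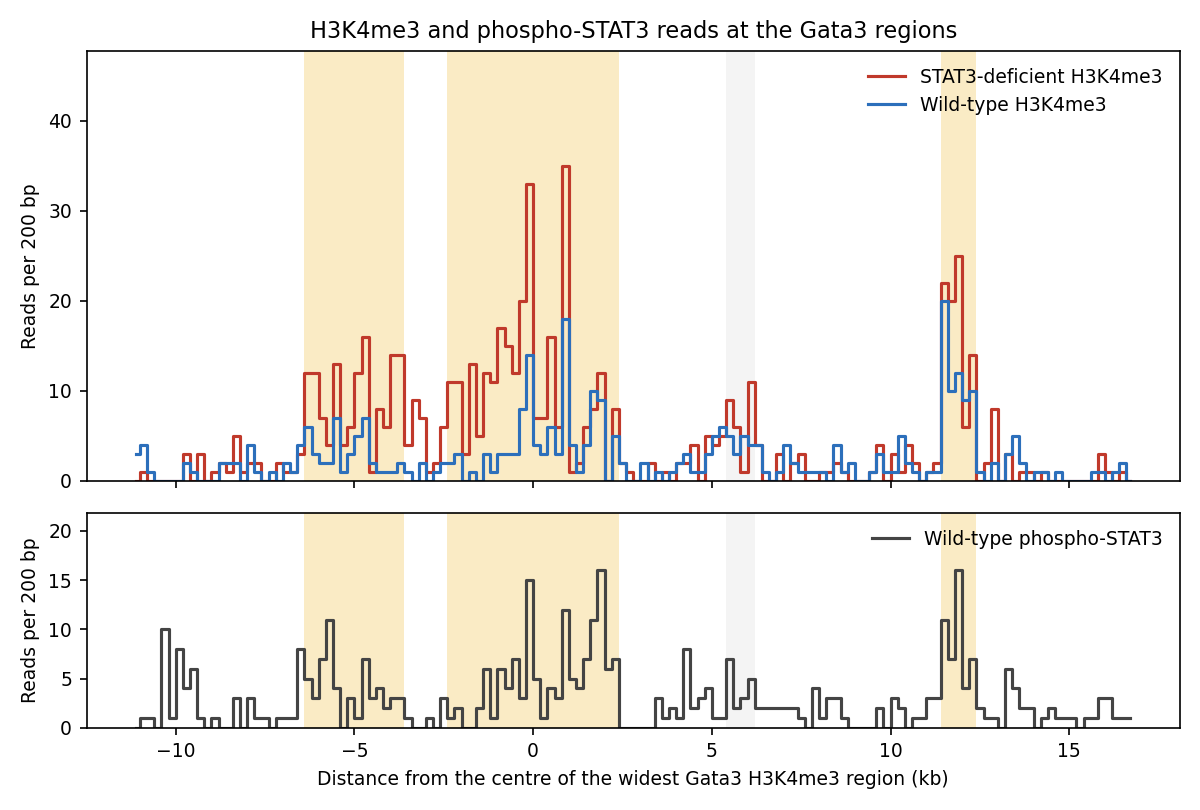
Reads per 200 bp at the Gata3 regions, with both H3K4me3 libraries above and phospho-STAT3 below, against distance in kb from the centre of the widest region. Yellow bands are marked regions and the grey band is a region under 50 reads. STAT3-deficient reads exceed wild-type reads in both wide regions (129 against 43 and 271 against 108), and by less in the narrow region on the right (87 against 61).

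Some choices bear on these calls. By library totals the ratios near Gata3 were larger, at log2 1.61 (1.10 to 2.14) and 1.35 (1.02 to 1.69), and both stayed past the rule, which 3.40% of marked regions then passed, 2.91% higher and 0.492% lower in STAT3-deficient cells. With a stricter region calling threshold of 1e-08, which trims the regions to their densest parts, the ratios were 0.95 and 0.77 and neither was past 2-fold. When the wild-type library alone defined the regions, its 1200 bp region was what remained of the stretch, with a log2 ratio of 0.25 (-0.32 to 0.83). That choice keeps regions for being high in wild-type cells and so sets the direction: over the genome it left 12 higher and 117 lower of 8904 marked regions, while calling on the STAT3-deficient library left 123 higher and 22 lower of 9670.

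Around Il4, Il13 and Il5 no H3K4me3 region was called at the main threshold, on the pooled libraries or on either alone. Read density there was low beside that of the marked regions. The window was divided into a segment around each gene. At a looser calling threshold of 1e-03, regions under 50 reads appeared in the Il4 segment (from 53421400, 8 STAT3-deficient and 15 wild-type reads) and the Il5 segment. Those of the Il5 segment began at 53540200 (5 and 14 reads) and 53548400 (23 and 22 reads). The Il4 segment (20501 bp) held 143 STAT3-deficient and 166 wild-type reads, 6.98 against 8.10 per kb. The Il13 segment (19500 bp) held 160 STAT3-deficient and 165 wild-type reads, 8.21 against 8.46 per kb. The Il5 segment (26000 bp) held 176 STAT3-deficient and 177 wild-type reads, 6.77 against 6.81 per kb. These densities were above the median of 10 kb stretches of the genome without a region, which was 3.9 STAT3-deficient and 4 wild-type reads per kb. The density expected from the library totals was 5.71 and 5.81 per kb. Phospho-STAT3 reads also lay above their own median of 2.7 per kb, at 6.19 (Il4), 6.51 (Il13) and 7.46 (Il5). Standing above that median was thus not particular to H3K4me3. The Th2 cytokine window outside its regions, which includes these segments, held 6.70 STAT3-deficient and 6.97 wild-type reads per kb.

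The highest single bins near the cytokine genes were low beside that of the Rad50 stretch (49 STAT3-deficient and 33 wild-type reads). The median 1 kb bin with reads in the genome held 4 STAT3-deficient and 5 wild-type reads. Each bin given here is the highest of its segment, so standing above that median is no sign of the mark. The shares of single bins given below do not allow for that choice either. The highest 1 kb bin of the STAT3-deficient library held 14 reads in the Il4 segment, 13 in the Il13 segment and 14 in the Il5 segment. In the wild-type library these were 15, 16 and 17. Bins at least as high as these made up between 2.34% and 5.56% of all bins with reads in the genome. Whether the intervals left out 0 depended on the scaling. H3K4me3 regions took up 8.84% of STAT3-deficient and 7.14% of wild-type reads, while the background was near equal, at 3.9 and 4 reads per kb. Scaled by marked regions, equal read counts therefore give a log2 ratio of -0.30. Ratios near that value in stretches without a region do not by themselves show less H3K4me3 in STAT3-deficient cells. With the scaling by marked regions, the log2 ratios were -0.51 (-0.84 to -0.18) for Il4, -0.34 (-0.66 to -0.02) for Il13 and -0.30 (-0.61 to 0.00) for Il5, and the window outside its regions had -0.35 (-0.49 to -0.22). By library totals, which shifts every log2 ratio by 0.32, they were -0.19 (-0.52 to 0.14) for Il4, -0.02 (-0.34 to 0.30) for Il13 and 0.02 (-0.29 to 0.33) for Il5, against -0.03 (-0.17 to 0.10) for the window outside its regions.

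The marked region of the Th2 cytokine window lay in the Rad50 stretch, from 53519800 to 53521199, and the interval of its ratio held 0 under both scalings. It held 81 STAT3-deficient and 62 wild-type reads, 57.9 against 44.3 per kb, a log2 ratio of 0.09 (-0.41 to 0.59). By library totals the log2 ratio was 0.41 (-0.09 to 0.91). Its width of 1400 bp was close to the middle of all marked regions, 54.1% of which were narrower. A sparse region in the same stretch, from 53473400 to 53473999, held 20 STAT3-deficient and 12 wild-type reads, with a log2 ratio of 0.44 (-0.66 to 1.61). Called on the STAT3-deficient library alone the marked region kept its 1400 bp, and on the wild-type library alone it was 800 bp, from 53520400 to 53521199. The whole Rad50 segment (69000 bp) held 513 STAT3-deficient and 493 wild-type reads. Scaled by marked regions this is a log2 ratio of -0.24 (-0.42 to -0.06), while library totals gave 0.08 (-0.10 to 0.26), the opposite sign.

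**Figure D3:**
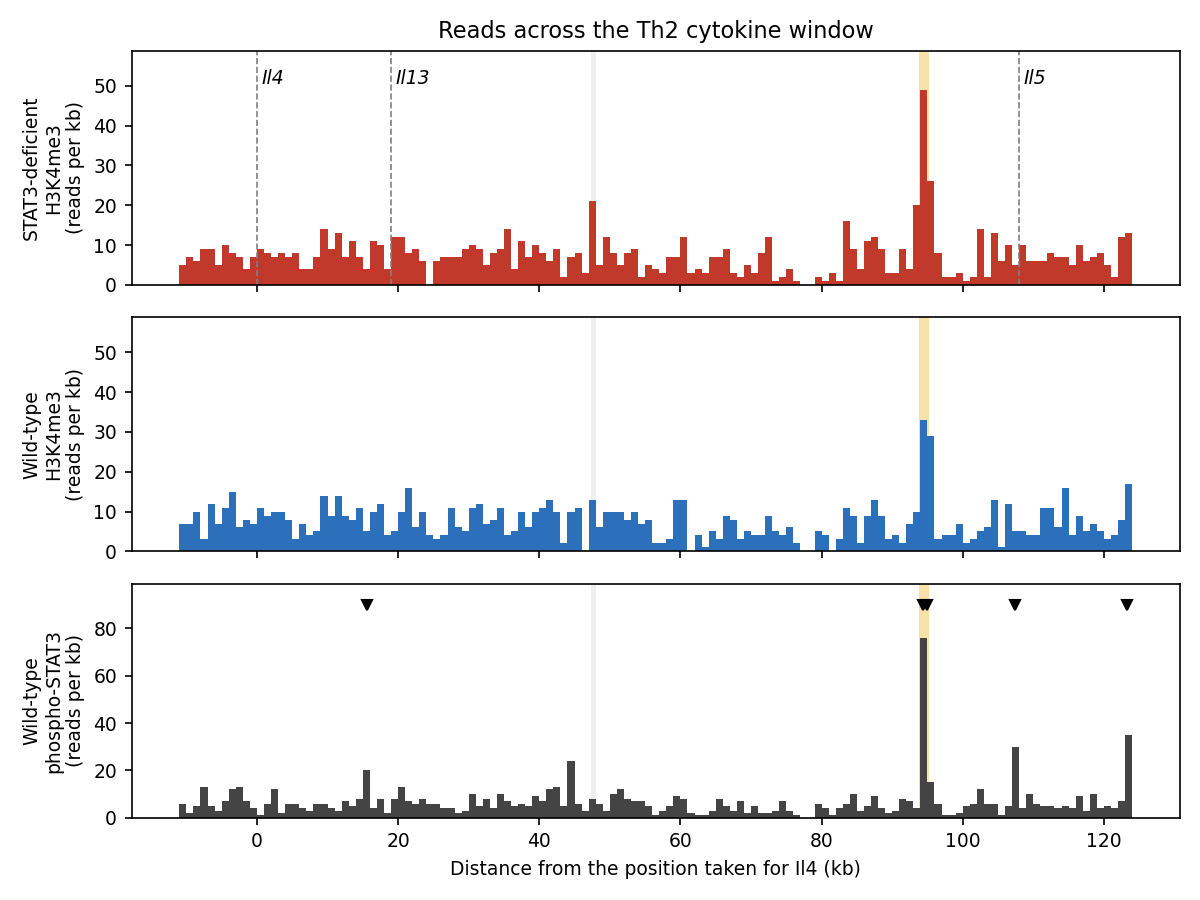
Reads per 1 kb bin across the Th2 cytokine window in the STAT3-deficient H3K4me3 (top), wild-type H3K4me3 (middle) and wild-type phospho-STAT3 library (bottom), against distance in kb from the position taken for Il4. Dashed lines are the positions taken for Il4, Il13 and Il5, the yellow band is the marked region, the grey band a region under 50 reads and triangles are phospho-STAT3 sites. H3K4me3 stands out in the Rad50 stretch (49 STAT3-deficient and 33 wild-type reads in the highest bin) and phospho-STAT3 there, before Il5 and at the right edge (76, 30 and 35 reads).

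**Figure D4:**
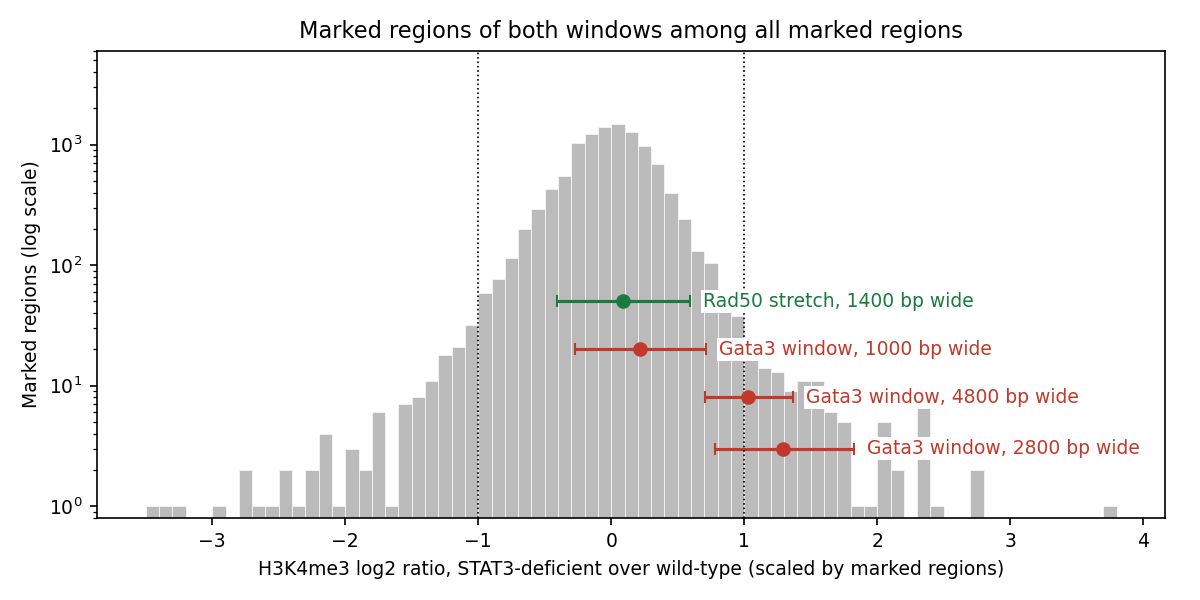
Number of marked regions (log axis) by H3K4me3 log2 ratio, STAT3-deficient over wild-type, with the 4 marked regions of both windows as points with 95% counting intervals at arbitrary heights. Dotted lines are the 2-fold limits. The wide Gata3 regions (1.29 and 1.03) lie at the right tail, the narrow Gata3 region (0.22) and the Rad50 region (0.09) in the bulk.

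Phospho-STAT3 in wild-type cells marked 6 sites in both windows out of 27061 in the genome, 1 near Gata3 and 5 in the Th2 cytokine window, and 1 of the 6 was strong. A site needs 10 reads or more in 200 bp, on both strands and far above the density around it, and strong sites are the top 25% by excess over the expectation, at least 26.1 reads. The strongest lay inside the Rad50 region, from 53520650 to 53521149. Its highest window held 33 reads, 15 on the plus and 18 on the minus strand, 13.5-fold over an expectation of 2.44 (exact Poisson tail, p = 6.6e-26, which tests reads within this library only). It ranked 4623rd of all sites. In the same 200 bp the H3K4me3 libraries held 11 STAT3-deficient and 6 wild-type reads. A second site in the Rad50 region, from 53520200 to 53520499, had 17 reads, 6.91-fold over its expectation. Over the whole region, phospho-STAT3 had 91 reads, a density above that of 93.6% of marked regions.

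The other 3 sites of the Th2 cytokine window had fewer reads than the strong Rad50 site and lay outside H3K4me3 regions. The site from 53533250 to 53533549, whose centre is 601 bp below the position taken for Il5, held 16 reads, 9.64-fold over an expectation of 1.66, and ranked 21107th. The H3K4me3 libraries held 4 STAT3-deficient reads and 1 wild-type read in that window. Within 1 kb of the site they held 17 STAT3-deficient and 11 wild-type reads, a log2 ratio of 0.33 (-0.85 to 1.57). The site nearest Il13, from 53441450 to 53441649, lay 3451 bp below the position taken for that gene and held 13 reads, 8.55-fold, near the bottom of all sites (3.63% had a smaller excess). The Il4 segment had no site. At the edge of the window, 15249 bp above the position taken for Il5, a site from 53549050 to 53549449 held 26 reads, 14.8-fold over its expectation and ranked 7971st. Within 1 kb of it, H3K4me3 had 25 STAT3-deficient and 24 wild-type reads.

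The 1 site of the Gata3 window lay in the narrow region. That site, from 9810900 to 9811199, held 19 reads, 10 on the plus and 9 on the minus strand, 8.33-fold over its expectation (exact Poisson tail, p = 6.0e-12) and ranked 16720th. The same window held 19 STAT3-deficient and 4 wild-type H3K4me3 reads, against 19 phospho-STAT3 reads. This site and the strong Rad50 site were also called in both H3K4me3 libraries by the same rule. The second Rad50 site, from 53520200, was also called in the STAT3-deficient H3K4me3 library but not in that of wild-type cells. The part of signal common to the libraries in these sites was not tested. No input or STAT3-deficient phospho-STAT3 library was analysed here, so sites are enrichment with this antibody in 1 library. Within 1 kb of the Gata3 site, H3K4me3 counts were 93 in STAT3-deficient and 64 in wild-type cells, a log2 ratio of 0.24 (-0.23 to 0.73), or 0.56 (0.09 to 1.05) by library totals, so whether the interval left out 0 depended on the scaling. In the wide regions where H3K4me3 was higher in STAT3-deficient cells, no phospho-STAT3 window of 200 bp reached the site threshold, but with windows of 400 bp a site was called in the second, from 9800700 with 29 reads. The highest window of 200 bp held 11 reads in the first region, 4.20-fold over its expectation, and 17 in the second, 4.70-fold. That expectation comes from the 10 kb around each window, which include the regions' own reads. Across these regions phospho-STAT3 had 56 and 128 reads, 4.17-fold and 5.57-fold over the density expected from the library total. Their densities were above those of 13.4% and 28.7% of marked regions. The highest phospho-STAT3 bin of 1 kb in the Gata3 window, with 39 reads, began at 9800000 in the second region.

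**Figure D5:**
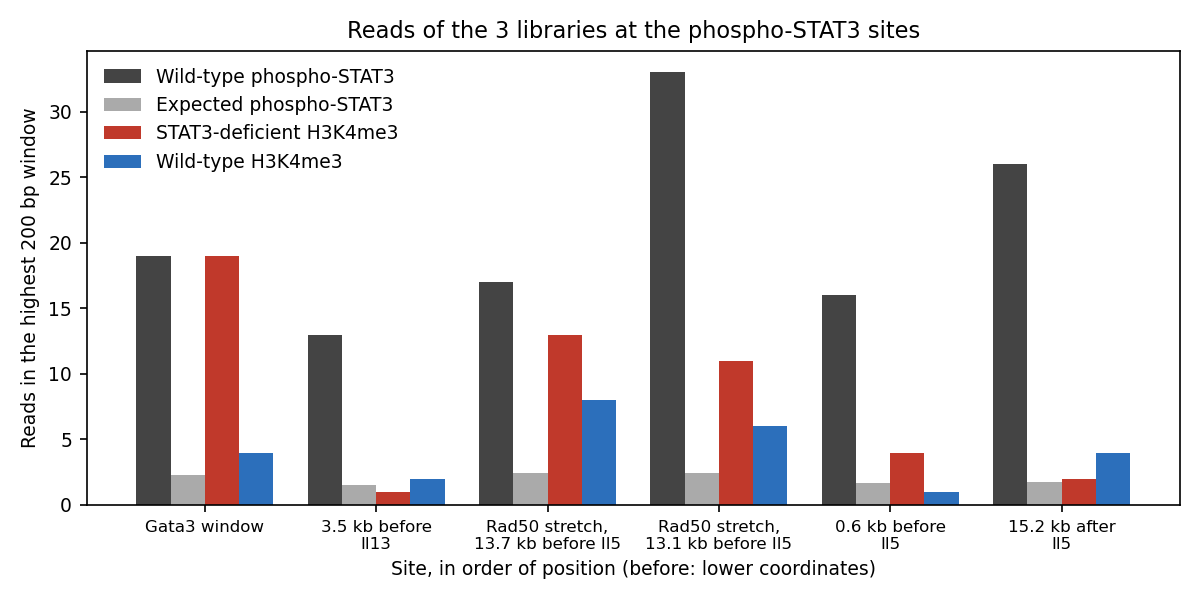
Reads in the highest 200 bp window of each of the 6 phospho-STAT3 sites for wild-type phospho-STAT3, its expectation from the local density, and STAT3-deficient and wild-type H3K4me3. The Rad50 site with 33 reads and the site at the window's edge with 26 stand highest, and at the Gata3 site STAT3-deficient H3K4me3 (19 reads) equals phospho-STAT3.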

How the data were processed

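The deposited files hold the aligned 25 bp reads of a library each, a line per read, and no repeated position on a strand. The submitters' processing notes name the build mm9 and the tool SICER, whose output was not used here, and the aligner is not given in the sources used here. Reads were moved 75 bp towards the fragment centre. H3K4me3 regions were windows of 200 bp with at least 12 pooled reads (Poisson p of 1e-05, mappable share 0.8), joined within 600 bp, with at least 2 windows. For phospho-STAT3 sites, 200 bp windows moved by 50 bp needed 10 reads, some of them on each strand, and a Poisson p below 1e-08 at the expected density, genome-wide or within 10 kb, whichever was higher. Other scalings, thresholds, windows, gaps and read shifts, and libraries thinned to equal depth, were tried. The callers and the ratio rule were tested on simulated data. By the naming rule, the 5 members, all H3K4me3 regions and, of the sites, the largest in each window and those near a gene position or in a marked region are described, which here is every site. The members, segments and lists were chosen with earlier results of these data known. The preset lists of other Th2 genes and of cell type markers were not run, since no annotation of mm9 was used here. Python 3.11.15, numpy 2.4.6, scipy 1.17.1, pandas 2.3.3 and matplotlib 3.10.9 were used.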

Additional observations from a re-analysis of the deposited data

How the results depend on the processing

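No paired analysis was possible because each group had 1 library. The log2 ratio of the Gata3 region from 9792800 stayed above 0 in 13 of 13 alternatives (0.83 to 1.61), with no region there on the wild-type library alone, and past the 2-fold rule in 11, falling short at calling thresholds of 1e-08 (0.95) and 1e-12 (0.83). That of the region from 9796800 stayed above 0 in 14 of 14 (0.25 to 1.35) and past the rule in 11, falling short with a trend over read count removed (0.96), at 1e-08 (0.77) and with regions defined by the wild-type library (0.25). These ratios sum all called pieces of a region, and the count of higher regions takes each piece alone. That count, 2, became 1 with the trend removed (132 of all 10971 marked regions), at a gap of 200 bp (1.09% of all), at 1e-03 (0.999%), at 1e-12 (0.791%) and at a gap of 1400 bp chosen after seeing the data (0.873%), and 0 at 1e-08 (0.921%) and on wild-type regions (0.135%). At 200 bp the first region splits into 3 pieces under 50 reads, and at 1e-03 and 1400 bp both regions are joined to 1. On wild-type regions, 12 were higher and 117 lower of 8904. The cause of the other changes was not tested. The count of lower regions was 0 in every alternative counted, which leaves out background subtraction. Of all marked regions, between 0.228% and 2.35% were lower in these alternatives, so 0 among so few regions says little. The Rad50 region's ratio was above 0 in 12 of 14 alternatives (-0.06 to 0.41). The single site in the Gata3 window became 4 sites at p under 1e-05, 2 with 400 bp windows, and 0 at p under 1e-12, with at least 20 reads, or without sites also called in both H3K4me3 libraries. With 400 bp windows the added site was in the second wide region, from 9800700. The 5 sites of the Th2 cytokine window became 7 at p under 1e-05, 2 at p under 1e-12 and with at least 20 reads, and 3 with 400 bp windows and with local density over 5 kb. They became 4 without sites also called in both H3K4me3 libraries, which removes the strong Rad50 site from 53520650. That site and the site from 53549050 were the 2 kept at 1e-12. By library totals, the Gata3 window's log2 ratio was 0.53 and that of the Th2 cytokine window 0.01, against 0.21 and -0.31 with the scaling by marked regions. Trend removal was not run for the segments.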

Other observations

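Beyond the Gata3 window, the nearest marked H3K4me3 regions were 3106601 bp below and 129200 bp above it. The 5 nearest on each side, 10 in all, had log2 ratios from -0.32 to 0.56 with a median of 0.27, and 0 of them passed the 2-fold rule under either scaling. Beyond the Th2 cytokine window the 10 nearest ranged from -0.62 to 0.95, with 0 past the rule by marked regions and 2 by library totals. The highest of these, on chromosome 11 from 53583600 to 53586199, held 202 STAT3-deficient and 85 wild-type reads (log2 ratio 0.95, 95% interval 0.58 to 1.34), 33600 bp above the window on the side of Il5. By library totals its log2 ratio was 1.27 (0.90 to 1.66), past the rule.

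At the looser site threshold of p under 1e-05, phospho-STAT3 windows appeared inside the widest Gata3 region from 9799000 with 15 reads and from 9800900 with 17, and in the narrow Gata3 region from 9810550 with 12. In the Th2 cytokine window, windows were added in the Il4 segment from 53422850 with 12 reads and in the Rad50 stretch from 53470350 with 13.

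The 5 sites of the Th2 cytokine window include the neighbouring sites of the Rad50 region. They compare with a mean of 1.43 and a median of 0 in 18915 stretches of the genome of the same length, 10.6% of which held as many or more. The 1 site of the Gata3 window compares with a mean of 0.955 and a median of 0 in 28329 stretches, 37.2% of which held as many or more.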
